A study of Homo sapiens with 12 samples.

Results

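The caveola genes CAV1, CAV2, CAVIN1, CAVIN2, CAVIN3 and EHD2, 6 of the 85298 identifiers in the deposited table, were followed in HEK 293T cells, a transformed human embryonic kidney line, after knockdown of SIDT2. SIDT2 is a membrane protein of lysosomes linked to the uptake of RNA. The members were taken by name as caveolins, cavins and their ATPase partner. CAV2 was chosen by its CPM levels in these same libraries, low in one hairpin group, and the other members were added by name around it, so the group differences of CAV2 are described here and not tested. There were 3 groups of 4 poly(A) RNA libraries: cells given a lentivirus with a scramble hairpin, cells given SIDT2 shRNA-B, and cells given SIDT2 shRNA-D. All cells were of the same line, all carried a hairpin virus, and all were harvested 72 h after transduction. The labels do not say whether transduced cells were selected, and the hairpin sequences are not used here. Replicate numbers 1 to 4 recur in every group.

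Caveolae are small flask-shaped pits of the plasma membrane, rich in cholesterol and sphingolipids, that flatten when a membrane is stretched. Caveolin-1 inserts into the membrane as a hairpin and forms oligomers, and caveolin-2 joins it and depends on it to leave the Golgi in many cells. Cavins are cytosolic proteins that coat the bulb, with cavin-1 needed for its assembly, and EHD2 is an ATPase that holds the pit at its neck. These genes are best known from endothelium, fat cells, fibroblasts and muscle.

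CAV2 and CAV1 lie next to each other on chromosome 7 in the same orientation, each with its own promoter. They are shown here because CAV2 was low with shRNA-D and its neighbour was not. The CAVIN2 promoter is added because that gene was close to silent. RefSeq (GRCh38.p14) supplied promoters for 4 of the 6 members: CAV1, CAV2, CAVIN2 and EHD2. Each run below is the 250 bases before the first listed start, 5′ to 3′ on the gene's strand. Capitals mark the GC box GGGCGG or its complement on the other strand.
CAV2 promoter, chr7:116499488-116499737, plus strand: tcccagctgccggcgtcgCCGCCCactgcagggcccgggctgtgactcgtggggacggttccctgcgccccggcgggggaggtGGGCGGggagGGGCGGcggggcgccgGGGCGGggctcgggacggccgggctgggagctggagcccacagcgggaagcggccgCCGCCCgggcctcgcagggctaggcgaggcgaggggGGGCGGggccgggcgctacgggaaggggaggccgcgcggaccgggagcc
CAV1 promoter, chr7:116524759-116525008, plus strand: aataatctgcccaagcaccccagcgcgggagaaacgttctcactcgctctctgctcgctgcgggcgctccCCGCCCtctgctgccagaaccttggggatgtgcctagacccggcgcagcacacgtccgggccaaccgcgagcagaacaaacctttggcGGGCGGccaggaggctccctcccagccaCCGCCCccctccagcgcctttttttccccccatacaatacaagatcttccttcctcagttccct
CAVIN2 promoter, chr2:191847089-191847338, minus strand: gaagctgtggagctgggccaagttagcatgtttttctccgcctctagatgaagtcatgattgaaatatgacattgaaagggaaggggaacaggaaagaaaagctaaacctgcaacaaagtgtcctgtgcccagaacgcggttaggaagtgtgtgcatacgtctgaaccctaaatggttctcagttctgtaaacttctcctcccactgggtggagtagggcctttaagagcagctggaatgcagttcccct

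The CAV2 stretch held 6 GC boxes and 35 CG pairs, with 83.2% G or C. The CAV1 stretch held 3 GC boxes and 18 CG pairs (63.6% G or C), and that of EHD2 held 1 and 20 (69.6%). In CAVIN2 there was no GC box and there were 4 CG pairs (48% G or C), beside 1 match to the TEAD motif GGAATG on either strand. Of 35116 promoter stretches of 250 bases, 42.6% held a GC box and 11.9% a TEAD motif, and the median number of CG pairs was 11. These matches describe the letters only.

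Library totals lay between 68737402 and 102644699 estimated counts, and 26366 genes were tested. SIDT2 itself was at 20.1 ± 1.41 CPM (counts-per-million after TMM scaling; SD, n = 4) in scramble cells, 6.85 ± 1.04 under shRNA-B and 6.95 ± 1.0 under shRNA-D. The 8 markers chosen for the HEK 293T line summed to 975 to 1191 CPM per library. Most of this sum came from 1 gene, VIM, which averaged 826 CPM in scramble cells, 855 with shRNA-B and 752 with shRNA-D. PAX2, another of these markers, averaged only 3.59, 2.35 and 3.75 CPM in the same order. Markers of endothelium summed to 0.416 to 1.10 CPM, of fat cells to 0.745 to 1.48, of skeletal muscle to 1.28 to 2.01 and of leukocytes to 1.74 to 2.14. FABP4 was at 0 in every scramble library and CD3E in every shRNA-D library. Fibroblast markers summed to 12.1 to 22.9 CPM, led by COL1A1, at 14.02 ± 2.17 CPM in scramble (n = 4). The labels name no separate cultures behind the replicate numbers, so the tests weigh differences only against the scatter of these libraries, which may be technical. In bulk RNA fewer expressing cells and less RNA per cell cannot be told apart.

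At baseline the set was uneven. Levels per kilobase of the longest coding transcript in GENCODE v29 put CAV1 first in scramble cells, at 4.42 ± 1.16 CPM per kb (SD, n = 4). CAVIN1 followed at 3.34 ± 0.36 and CAV2 at 3.22 ± 0.37 CPM per kb, and the ranges of these 3 genes overlapped. EHD2 was lower, at 0.921 ± 0.15 CPM per kb, with its highest scramble library (1.07) below the lowest of the other 3 genes (2.75). CAVIN2 and CAVIN3 were at or near nothing. With shRNA-D the order of the means was the same, with CAV2 at 1.33 ± 0.21 CPM per kb, between CAVIN1 at 3.28 ± 0.50 and EHD2 at 0.912 ± 0.18. The highest CAV2 library (1.55) then lay below the lowest CAVIN1 library (2.61).

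**Figure D1:**
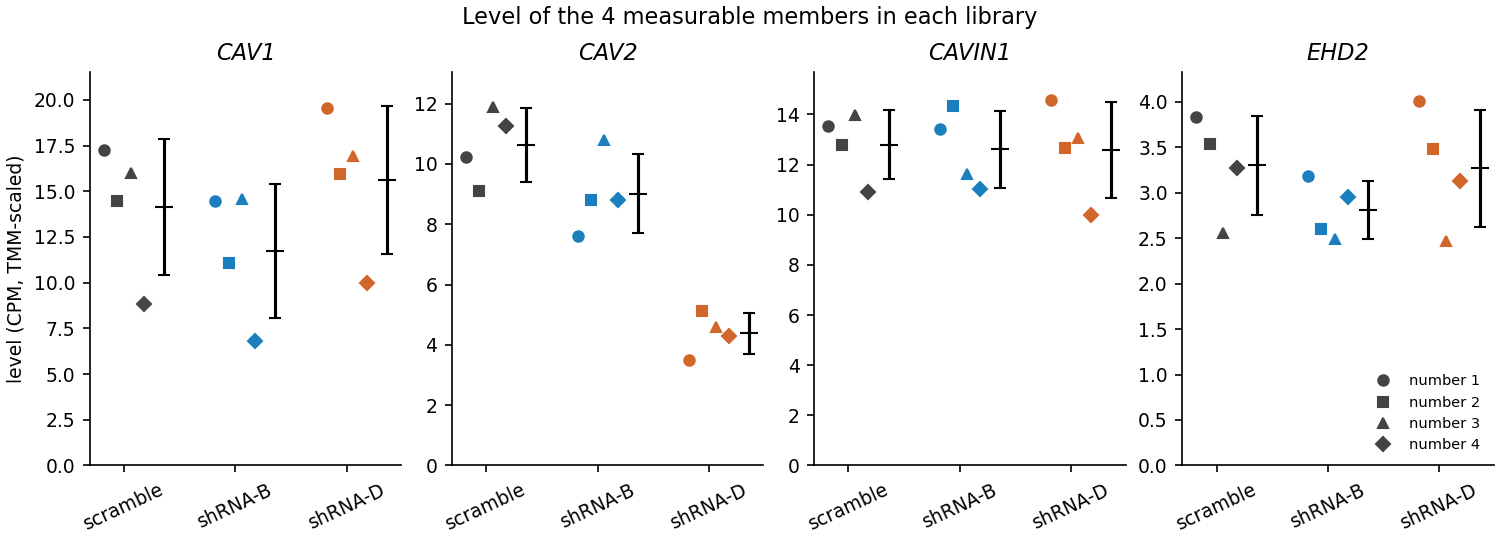
Level in CPM (y axis, from 0) of CAV1, CAV2, CAVIN1 and EHD2 in each of 12 libraries, by group (x axis); marker shapes give the replicate number and black bars the mean ± SD of 4 libraries. The 4 shRNA-D libraries of CAV2 lie between 3.50 and 5.13 CPM, below all others of that gene, while the groups overlap for the other 3 genes.

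CAV2 (ENSG00000105971) encodes caveolin-2, the partner of caveolin-1 in caveolar oligomers. Scramble libraries 1 to 4 held 10.2, 9.09, 11.9 and 11.3 CPM. With shRNA-B they held 7.62, 8.81, 10.8 and 8.81 CPM, and with shRNA-D 3.50, 5.13, 4.60 and 4.30 CPM. All 4 shRNA-D libraries were below every library of the other groups, and the shRNA-B and scramble libraries overlapped. The group means were 10.6 ± 1.23 CPM (SD, n = 4), 9.01 ± 1.32 and 4.39 ± 0.68, so the shRNA-D mean was 58.7% lower than scramble and 51.3% lower than shRNA-B. These values are the ones that made CAV2 the centre of the set.

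The fitted log2 fold change of CAV2 was -1.28 ± 0.16 (SE) with shRNA-D, -0.24 ± 0.15 with shRNA-B, and -1.04 ± 0.15 between shRNA-D and shRNA-B. Within the replicate numbers, shRNA-D was below scramble in 4 of 4 pairs, by -0.77 to -1.42 on the log2(CPM + 0.5) scale. With shRNA-B the 4 pairs were also below scramble, by -0.04 to -0.40. The smallest shRNA-D difference belonged to number 2, where scramble was lowest and shRNA-D highest. Both hairpin comparisons use the same scramble libraries. The mean SIDT2 RNA level was nearly the same with both hairpins (log2 difference 0.02 ± 0.14, 95% interval -0.28 to 0.32). The CAV2 levels differed, which is the pattern CAV2 was chosen for, and what this difference comes from was not tested. Within the numbers the SIDT2 difference between shRNA-D and shRNA-B ran from -0.25 to 0.37 on the log2(CPM + 0.5) scale.

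The deposited values of CAV2, CAVIN1 and EHD2 were whole numbers in 0 of 12 libraries (within 1e-06). Those of CAV1 were whole in 12 of 12, so fractional values were not particular to CAV2. An estimated count need not be whole, since a read that matches several genes is divided among them. The antisense gene AC002066.1, which overlaps the CAV2 gene in GENCODE v29, held 0 to 6 estimated counts per library against 310 to 1189 for CAV2. RF00017, which lies within the CAV2 gene on the same strand, held 1.003 to 12.36 estimated counts. With which genes CAV2 reads were shared was not tested.

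CAV1 (ENSG00000105974) encodes caveolin-1, the main structural protein of caveolae. Scramble libraries 1 to 4 held 17.3, 14.5, 16.0 and 8.83 CPM. With shRNA-B they held 14.5, 11.1, 14.6 and 6.83 CPM, and with shRNA-D 19.5, 16.0, 17.0 and 9.99 CPM. The 3 groups overlapped, and in each group the library numbered 4 was far below the rest. Group means were 14.1 ± 3.73, 11.7 ± 3.66 and 15.6 ± 4.04 CPM (SD, n = 4).

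Set against the scramble library of its own number, CAV1 was lower in 4 of 4 shRNA-B libraries, by -0.13 to -0.37 on the log2(CPM + 0.5) scale. It was higher in 4 of 4 shRNA-D libraries, by 0.08 to 0.17. In every number the order was therefore shRNA-D, scramble, shRNA-B from high to low. CAV1 and CAV2 thus stood on opposite sides of scramble with shRNA-D and on the same side with shRNA-B.

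In the model of group alone, edgeR, with p adjusted by Benjamini-Hochberg over all tested genes, gave CAV1 a log2 fold change of -0.27 ± 0.27 with shRNA-B (adjusted p = 0.946). The values were 0.14 ± 0.27 with shRNA-D (adjusted p = 1) and 0.41 ± 0.27 between the hairpins (adjusted p = 0.731). None passed the threshold of 0.05. With the replicate number as a block, edgeR gave -0.28 ± 0.07 with shRNA-B (adjusted p = 0.0147) and 0.43 ± 0.07 between shRNA-D and shRNA-B (adjusted p = 0.000982), both past the threshold, and 0.15 ± 0.07 with shRNA-D (adjusted p = 0.307). Leaving out shRNA-B replicate 4 ended the blocked call with shRNA-B (adjusted p = 0.0524). The blocked difference between the hairpins was called with any 1 library left out, with adjusted p values from 0.000542 to 0.00465.

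**Figure D2:**
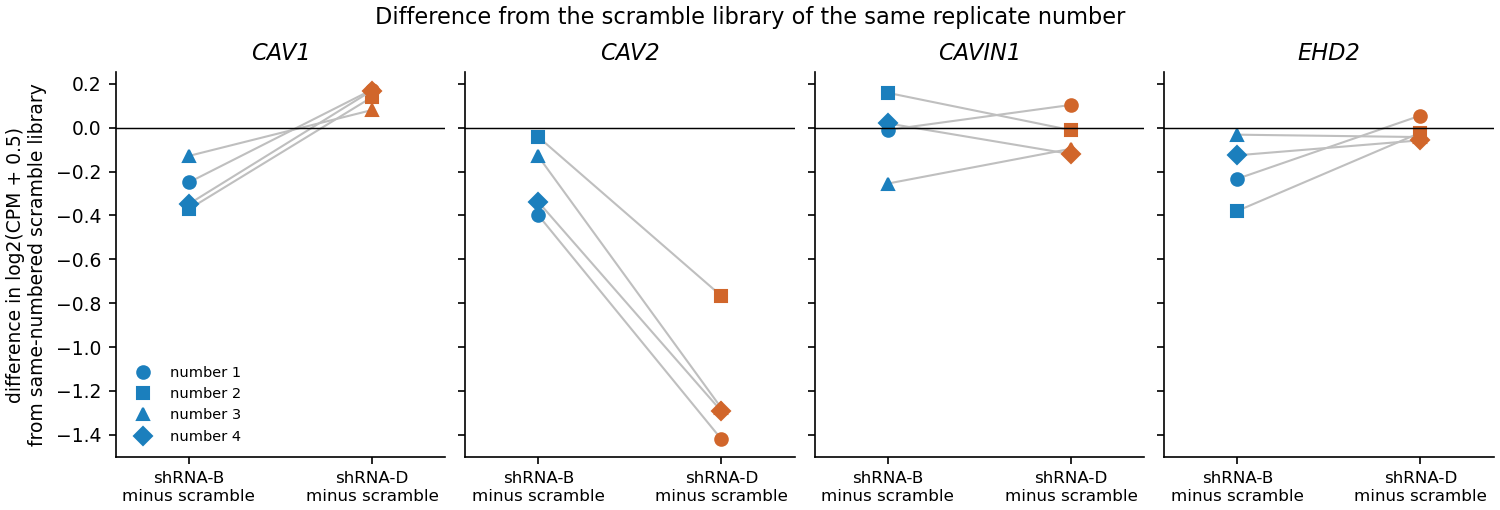
Difference in log2(CPM + 0.5) between each knockdown library and the scramble library of the same replicate number (y axis), for shRNA-B and shRNA-D (x axis), in 4 genes; grey lines join the same number. CAV1 points lie below 0 with shRNA-B and above 0 with shRNA-D in all 4 numbers, and CAV2 points with shRNA-D lie between -0.77 and -1.42.

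The balance of the 2 caveolin transcripts followed from this. Per kilobase, the ratio of CAV2 to CAV1 was 0.573, 0.610, 0.720 and 1.24 in scramble libraries 1 to 4. It was 0.511, 0.773, 0.718 and 1.25 with shRNA-B, and 0.174, 0.312, 0.263 and 0.418 with shRNA-D. All 4 shRNA-D ratios were below every other ratio, and number 4 had the highest ratio in each group. The means were 0.785 ± 0.31 (SD, n = 4), 0.813 ± 0.31 and 0.292 ± 0.10. Since CAV2 enters the ratio, it is described without a test.

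CAVIN1 (ENSG00000177469) is the cavin needed for the caveolar coat. Scramble libraries 1 to 4 held 13.5, 12.8, 13.98 and 10.9 CPM, shRNA-B libraries 13.4, 14.3, 11.6 and 11.04 CPM, and shRNA-D libraries 14.6, 12.7, 13.0 and 9.97 CPM. The groups overlapped, with means of 12.8 ± 1.36, 12.6 ± 1.53 and 12.6 ± 1.91 CPM (SD, n = 4). The log2 fold change was -0.02 ± 0.14 with shRNA-B (95% interval -0.32 to 0.28) and -0.03 ± 0.14 with shRNA-D (-0.32 to 0.27). In the blocked model the intervals were -0.18 to 0.14 and -0.20 to 0.13. In edgeR the adjusted p was 0.996 with shRNA-B and 1 with shRNA-D, and none of the models called the gene.

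CAVIN2 (ENSG00000168497), a cavin that shapes the membrane, held 0 to 5 estimated counts per library, with 11 counts over the scramble libraries and 5 over each hairpin group. CAVIN3 (ENSG00000170955), which brings kinases to caveolae, was listed at 0 in 12 of 12 libraries. A count of 3, chosen here as a floor, would correspond to 0.0285 to 0.0442 CPM per library, so a CAVIN3 level under that range could have been missed. Single counts below it were still listed, as for CAVIN2 in shRNA-B library 4 (1 count, 0.0100 CPM). CAVIN2 and CAVIN3 did not pass the filter on low counts, and no fold is given for them.

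EHD2 (ENSG00000024422), the ATPase at the neck of caveolae, was weak. Scramble libraries 1 to 4 held 3.83, 3.54, 2.56 and 3.27 CPM, shRNA-B libraries 3.19, 2.61, 2.49 and 2.96 CPM, and shRNA-D libraries 4.00, 3.48, 2.47 and 3.12 CPM. The groups overlapped, although shRNA-B was below scramble in 4 of 4 numbers, by -0.03 to -0.38 on the log2(CPM + 0.5) scale. In edgeR's quasi-likelihood test the log2 fold change was -0.23 ± 0.18 (adjusted p = 0.925) for shRNA-B and -0.02 ± 0.18 (adjusted p = 1) for shRNA-D. With the block it was -0.22 ± 0.10 with shRNA-B (adjusted p = 0.209). Counting error alone came to 5.09% to 7.73% of the EHD2 level per library.

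Besides CAV2, 3 members could be tested, namely CAV1, CAVIN1 and EHD2. In the model of group alone 0 of 3 were called with shRNA-B, where 0.876% of all tested genes were called. The same count, 0 of 3, was found with shRNA-D (background 0.269%), for the mean of both hairpins (0.231%) and between the hairpins (0.952%). At an unadjusted p under 0.05 in edgeR the count was also 0 in each comparison, against 7.75%, 4.66%, 5.47% and 9.35% of all tested genes in the same order. DESeq2 also called 0, against 3.08%, 1.21%, 1.82% and 3.77% of the genes it gave an adjusted p. With the replicate block 1 of 3, CAV1, was called with shRNA-B (background 9.58%) and between the hairpins (12.9%), and 0 of 3 with shRNA-D (3.3%) and for the mean (5.07%). For the mean of both hairpins CAV1 was at -0.06 ± 0.23, CAVIN1 at -0.02 ± 0.12 and EHD2 at -0.12 ± 0.16 on the log2 scale.

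**Figure D3:**
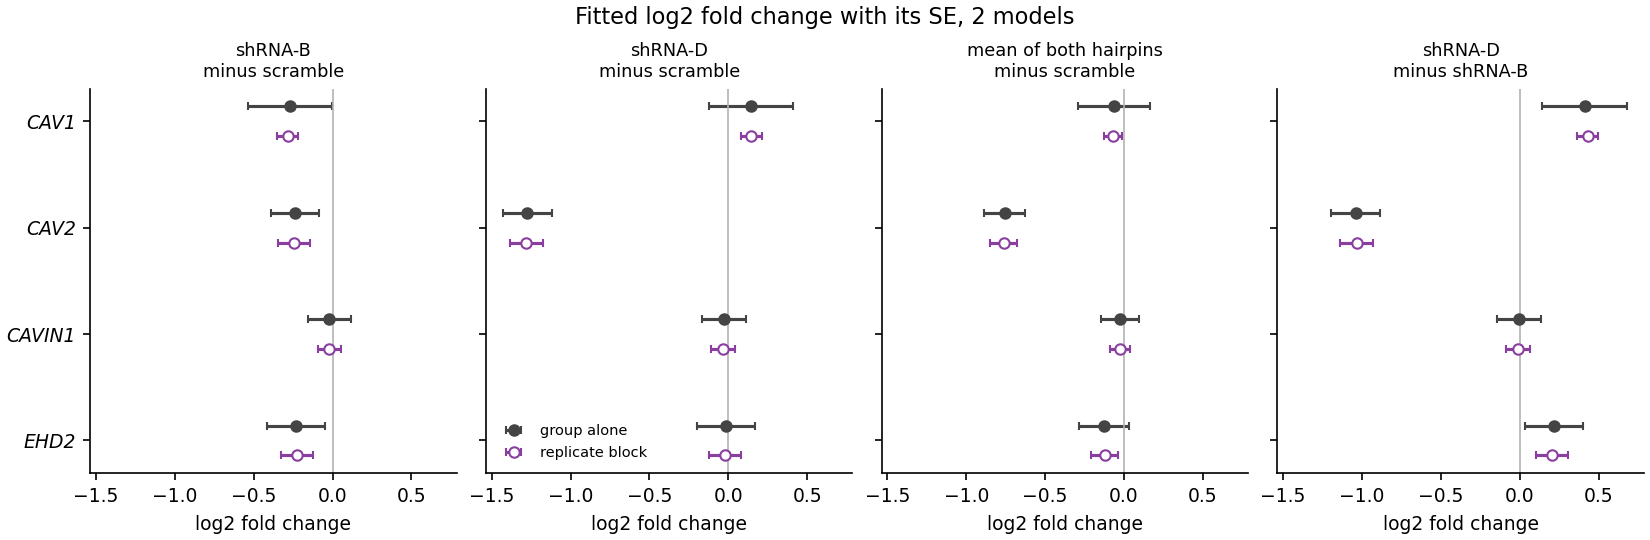
Fitted log2 fold change (x axis) ± SE of 4 members in 4 comparisons, from the model of group alone (filled) and with the replicate number as a block (open). CAV2 lies at -1.28 with shRNA-D, whereas the other 3 genes lie between -0.28 and 0.43 in all 4 comparisons.

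Some of the members also differed between replicate numbers. This comparison was added after the values were seen. CAV1 averaged 17.1 ± 2.55, 13.8 ± 2.51 and 15.9 ± 1.19 CPM in numbers 1 to 3 and 8.55 ± 1.60 CPM in number 4 (SD over 3 groups, n = 3). The number 4 library was at 0.555 of the mean of the other 3 numbers for scramble, 0.511 for shRNA-B and 0.571 for shRNA-D. CAVIN1 was also lowest in number 4 in all 3 groups, at 0.811, 0.841 and 0.743 of the others. EHD2 was instead lowest in number 3 and highest in number 1 in all 3 groups. CAV2 had its lowest library in number 2 in scramble and in number 1 with each hairpin.

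In a model of group and number, edgeR's quasi-likelihood test for any difference between numbers gave adjusted p = 2.72e-06 for CAV1, 0.0134 for CAVIN1, 0.0133 for EHD2 and 0.102 for CAV2. So 3 of 4 members were called, beside 47.2% of all tested genes. The fibroblast markers were also lowest in number 4: they summed to 12.1 to 12.9 CPM there, 13.2 to 17.5 in number 3, 17.4 to 18.4 in number 2 and 17.7 to 22.9 in number 1. This was not particular to them. The lowest sum was in number 4 for the HEK 293T line (975 CPM), endothelium (0.416), skeletal muscle (1.28) and leukocytes (1.74), with overlap between numbers. For fat cells it was in number 1 (0.745 CPM). Library totals in number 4 were 8.09e+07 to 1.03e+08 estimated counts, against 6.87e+07 to 9.51e+07 in the others. The part of the marker sums or the library totals in the CAV1 result was not tested. Without shRNA-D replicate 4 CAVIN1 was no longer called (adjusted p = 0.0965), and CAV2 was called without scramble replicate 2 (adjusted p = 0.0428) or shRNA-D replicate 2 (adjusted p = 0.0465).

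**Figure D4:**
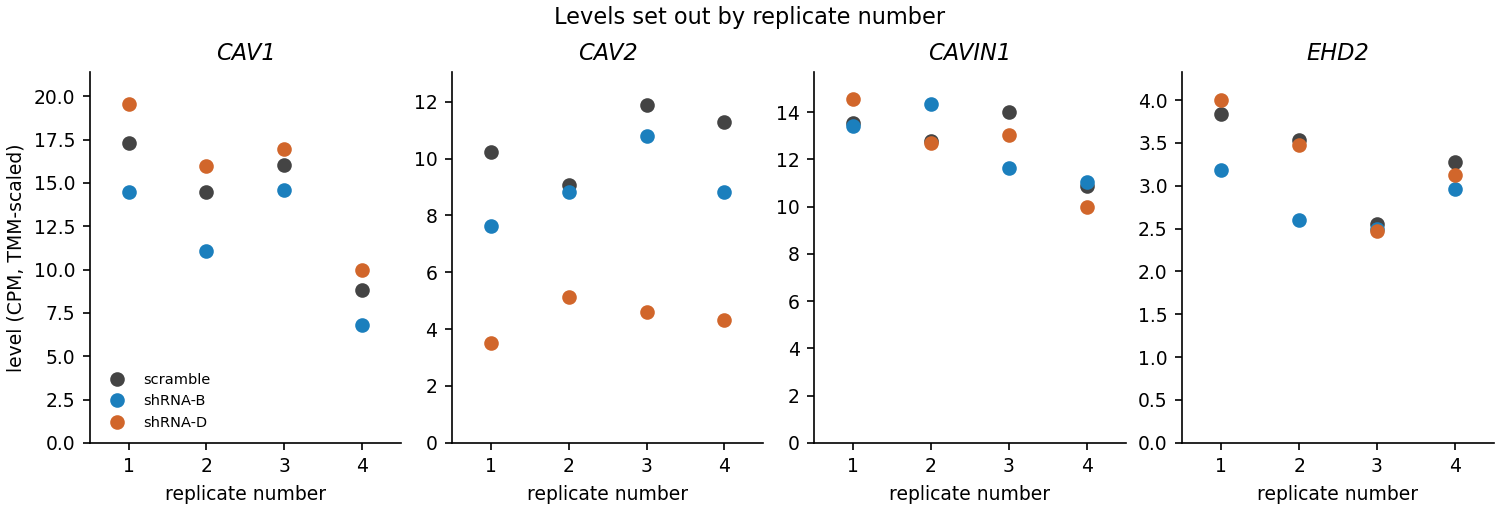
Level in CPM (y axis, from 0) of 4 members against replicate number (x axis), with 1 point per library coloured by group. CAV1 is lowest in number 4 in all 3 groups, at 6.83 to 9.99 CPM, and EHD2 is lowest in number 3, at 2.47 to 2.56 CPM.

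Over the 12 libraries the levels of CAV1 and CAVIN1, on the log2(CPM + 0.5) scale, had a Pearson r of 0.70, or 0.78 after group means were taken out. For CAV1 and CAV2 r was -0.28, or -0.11 after group means were taken out. For CAV2 and EHD2 it was -0.28 and then -0.64. These points share libraries, depth and replicate numbers, so the coefficients are descriptions.

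Of the 11476 genes that averaged 5 CPM or more, those most like CAV2 over 12 libraries included RAB21 (r = 0.97), SAP30L (0.96), KLHL2 (0.95) and C6orf120 (0.94). RAB21, a small GTPase of early endosomes, averaged 87.0 CPM in scramble cells, 73.7 with shRNA-B and 39.1 with shRNA-D. SAP30L, a subunit of histone deacetylase complexes, averaged 27.6, 27.8 and 15.1 CPM, and C6orf120 averaged 65.9, 69.1 and 29.4 CPM. KLHL2 was at 15.6, 15.4 and 9.94 CPM. These 4 genes had their lowest mean with shRNA-D, and they were picked for this likeness.

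Those most like CAV1 were SLC8A1, a sodium-calcium exchanger (r = 0.97), NHS (0.97), the iron reductase CYBRD1 (0.97), the autophagy receptor OPTN (0.97) and CCDC80 (0.96). Their group means, in the order scramble, shRNA-B and shRNA-D, were 12.3, 8.35 and 12.5 CPM for SLC8A1. For OPTN they were 36.4, 29.7 and 38.5 CPM, and for CYBRD1 12.8, 10.2 and 13.5 CPM. NHS stood at 7.55, 5.10 and 7.05 CPM and CCDC80 at 14.6, 11.2 and 14.2 CPM. In all 5 the lowest mean was with shRNA-B, as for CAV1, and they were picked for this likeness.

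The pair has the coding genes TES, MET and CAPZA2 around it on chromosome 7, none of which was called in the model of group alone. TES, a focal adhesion protein gene upstream of CAV2, was at 58.4 ± 4.54 CPM (SD, n = 4) in scramble cells, 56.4 ± 4.70 with shRNA-B and 54.1 ± 2.35 with shRNA-D. MET, the receptor of hepatocyte growth factor, lies beyond CAV1 and was at 82.3 ± 12.5, 66.0 ± 9.58 and 74.7 ± 7.5 CPM. CAPZA2, an actin capping subunit, was at 97.5 ± 9.58, 99.9 ± 25.9 and 89.0 ± 9.09 CPM. Their log2 fold changes with shRNA-D were -0.11 ± 0.09, -0.14 ± 0.13 and -0.13 ± 0.16 in edgeR, each with adjusted p = 1, and with the block 0.329, 0.407 and 0.609. With shRNA-B, MET passed in edgeR's blocked model (-0.32 ± 0.07, adjusted p = 0.0106, or 0.538 without the block). It also passed there for the mean of both hairpins (-0.22 ± 0.06, adjusted p = 0.0471, or 0.959 without the block). TFEC, another coding gene within 300 kb of the pair, held 2 to 14 estimated counts and did not pass the filter.

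Of 57 genes around caveolae in 8 lists, all tested, edgeR without the block called 0 with shRNA-B, with shRNA-D or for the mean of both hairpins, and 1 as lower with shRNA-D than with shRNA-B. At an unadjusted p under 0.05 in edgeR the counts were 6, 3, 3 and 12, and DESeq2 called 2, 1, 0 and 5, beside the shares of all genes given above. The lists were chosen with earlier results of these data known, so their counts are descriptions. The DESeq2 calls were FYN and ANKRD13A with shRNA-B, WWTR1 with shRNA-D, and FLNA, FYN, ANKRD13A, WWTR1 and AP2B1 between the hairpins. The median log2 fold change of the 57 was -0.03 with shRNA-B, -0.03 with shRNA-D and 0.02 between the hairpins, against 0.00039, -0.0082 and -0.0047 over all tested genes. With the replicate block 9 of 57 were lower with shRNA-B, where 9.58% of all genes were called in either direction. With shRNA-D 1 was higher and 1 lower (background 3.3%), and for the mean 2 were lower, FYN and ANKRD13A (background 5.07%). Between the hairpins 9 were higher with shRNA-D and 5 lower (background 12.9%).

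Muscle forms of the family were detected at low level. CAVIN4, the muscle cavin, was at 6.67 ± 0.47 CPM (SD, n = 4) in scramble cells, 6.05 ± 0.87 with shRNA-B and 6.59 ± 1.03 with shRNA-D, well above CAVIN2 and CAVIN3. CAV3, the muscle caveolin, was at 1.63, 1.54 and 1.57 CPM. Neither was called in either model. The EHD ATPases EHD1, EHD3 and EHD4 gave 0 of 3 calls in either model, and EHD3 was at 11.4 ± 1.11, 9.83 ± 1.09 and 10.2 ± 0.82 CPM.

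Among 6 factors of the caveolar neck, with PACSIN2 and the receptor-like ROR1, edgeR called 0 without the block. DNM2, the dynamin that cuts membrane necks, was at 149 ± 5.74, 126 ± 7.80 and 146 ± 6.44 CPM. In the blocked model DNM2 fell with shRNA-B (-0.24 ± 0.06, adjusted p = 0.0132 in edgeR), as did the sorting nexin SNX18 (-0.24 ± 0.07, adjusted p = 0.0369). Among 10 actin links and kinases, FYN, a Src-family kinase, was at 117 ± 5.69, 86.3 ± 10.97 and 113 ± 10.7 CPM. In edgeR FYN fell with shRNA-B with the block (-0.44 ± 0.06, adjusted p = 0.000472) and did not pass without it (adjusted p = 0.0728), while DESeq2 called it without a block (adjusted p = 0.00722). FLNA, the actin crosslinker filamin A, fell with shRNA-B in the blocked model (-0.24 ± 0.07, adjusted p = 0.0389).

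Of 8 genes for sorting and breakdown of caveolin, ANKRD13A, which binds ubiquitinated caveolin-1, was at 52.2 ± 5.01 CPM in scramble cells, 37.4 ± 4.90 with shRNA-B and 51.8 ± 2.31 with shRNA-D. Its change with shRNA-B was -0.48 log2, with adjusted p = 0.0537 in edgeR without the block, 0.000273 with it and 0.00276 in DESeq2. The ATPase VCP and its cofactor UBXN6, which act on the same step, were not called in either model. In the flotillin list 0 of 5 were called in either model. FLOT1, a scaffold of other membrane domains, was at 25.7 ± 7.25, 21.2 ± 1.98 and 22.4 ± 4.44 CPM.

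Among 13 factors and targets of YAP and TAZ, the coactivators that sense cell tension, WWTR1 was the 1 list gene that edgeR called without the block. It encodes TAZ and was at 29.2 ± 3.89 CPM (SD, n = 4) in scramble cells, 31.8 ± 1.97 with shRNA-B and 20.1 ± 2.32 with shRNA-D. WWTR1 was lower with shRNA-D than with shRNA-B by a log2 fold change of -0.66 ± 0.12 (adjusted p = 0.0163, edgeR's quasi-likelihood test). Against scramble its change with shRNA-D was -0.53 ± 0.12 (adjusted p = 0.113, or 0.0023 with the block). The call between hairpins was lost without shRNA-D replicate 1 (adjusted p = 0.0586), without shRNA-D replicate 3 (0.0617) and without number 4 in every group (0.116). In the blocked model the calls in this list had mixed directions. CCN1, a secreted YAP and TAZ target, rose with shRNA-D (0.38 ± 0.06, adjusted p = 0.00198), and TEAD2 and AMOTL2 fell with shRNA-B (-0.23 ± 0.05 and -0.26 ± 0.08). Between the hairpins 4 of 13 were higher with shRNA-D, namely TEAD2, CCN1, ANKRD1 and AMOTL2 (0.27 to 0.73). Another 3 were lower, namely YAP1, LATS2 and WWTR1 (-0.27, -0.28 and -0.66). Of all tested genes the blocked model called 9.58% with shRNA-B, 3.3% with shRNA-D and 12.9% between the hairpins, in either direction.

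In the clathrin coat list, the other main endocytic coat, edgeR called 0 of 10 without the block, and DESeq2 called AP2B1 between the hairpins (-0.29, adjusted p = 0.0291). AP2A2, an adaptor subunit, was at 32.8 ± 3.80, 26.0 ± 2.84 and 31.0 ± 0.67 CPM, and with the block AP2A2 and CLTB fell with shRNA-B (adjusted p = 0.0165 and 0.0182 in edgeR).

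**Figure D5:**
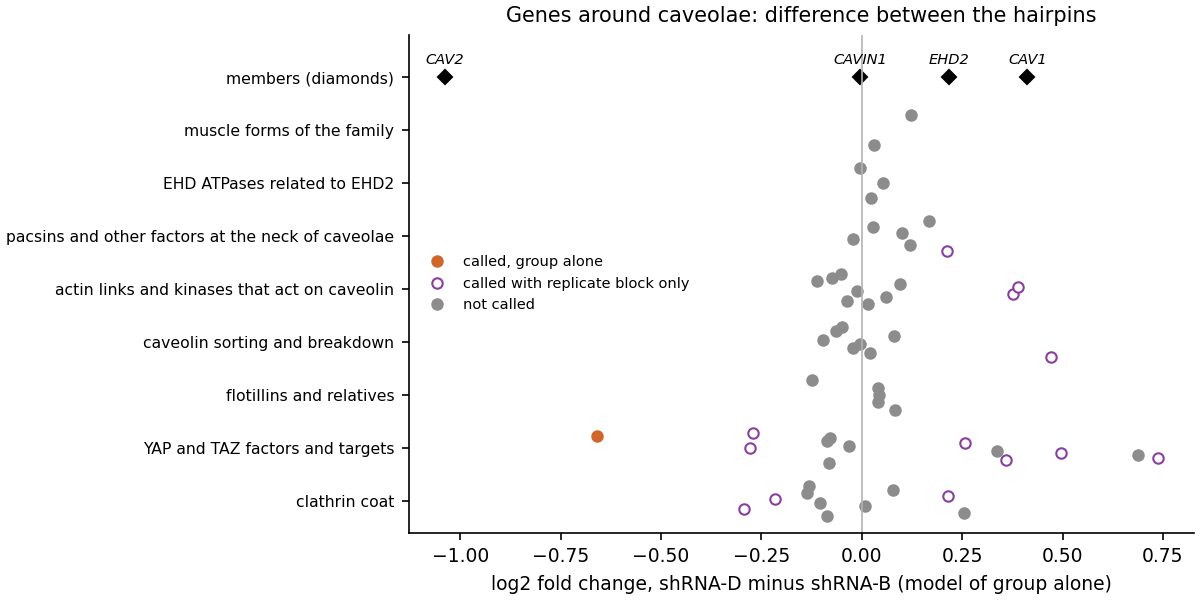
Log2 fold change between shRNA-D and shRNA-B (x axis) of 57 genes in 8 lists around caveolae and of 4 members (diamonds); orange points were called by edgeR in the model of group alone, open points by edgeR with the replicate block only, grey points in neither. CAV2 lies furthest to the left, at -1.04, and the orange point is WWTR1 at -0.66.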

How the data were processed

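RNA of 12 HEK 293T libraries was sequenced after poly(A) selection. The authors deposited estimated counts per Ensembl gene, not scaled between libraries; fastp and kallisto are named per the submitters' processing notes, with versions, build and annotation not given in the sources used here. Symbols were matched for 60443 of 85298 identifiers. Counts were rounded, scaled by TMM and filtered with filterByExpr. edgeR 4.0.16 (R 4.3.3) fitted group alone in all 12 libraries by quasi-likelihood with robust shrinkage, and calls needed a p under 0.05 after Benjamini-Hochberg adjustment over 26366 genes. DESeq2 1.42.0, other scalings, no filter and left-out libraries were alternatives, and the scripts were tested on simulated data.

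Members and lists were chosen with earlier results of these data known. All 6 members are named, with list genes edgeR called without the block, otherwise the one whose p for the mean contrast was smallest, and the 5 genes most correlated with CAV2 and with CAV1, of which 1 is not reported here. Neighbours on the chromosome and list genes called with the block were named after their values were seen. Same-numbered libraries deviated together (r from 0.314 to 0.779 in 12 pairs, all above 0.1). Pairs of different numbers ranged from -0.516 to 0.493 (36 pairs), so the ranges overlapped. The numbers were taken to pair the libraries on these data alone, and no label says what a number shares. Intervals cover 95%.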

Additional observations from a re-analysis of the deposited data

Results flagged for a closer look

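The difference between the hairpins was tested in edgeR for the members and list genes, and only CAV1 and WWTR1 were checked for a flag. With the block CAV1 did not stand apart in edgeR (adjusted p = 0.000982). The list genes CCN1, WWTR1 and ANKRD13A had smaller adjusted p values there (0.000169, 0.000191 and 0.000315). CAV1 exceeded its shRNA-B level under shRNA-D by 0.43 on the log2 scale with the replicate block, a model in which 9 of 57 list genes were also called higher, 5 lower, and 12.9% of all genes were called; without the block CAV1 did not pass (adjusted p = 0.731). WWTR1 was lower with shRNA-D than with shRNA-B by a log2 fold change of -0.66 in the model of group alone, the 1 list gene so called there. The CAV1 levels with shRNA-B were below and those with shRNA-D above the scramble library of the same number in 4 of 4 numbers, but the shRNA-D contrast itself did not pass in either edgeR model. What these differences come from was not tested.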

How the results depend on the processing

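Each count of called members (0 of 3 in 4 comparisons) stayed at 0 under other scalings, no filter, DESeq2, each library left out (0 to 0) and, added after the data were seen, without number 4. With only the groups compared it was 0 in the 3 comparisons of a pair of groups, and the mean, which uses all groups, has no such value. The exception was the replicate block, with 1 for shRNA-B and 1 between the hairpins, CAV1 each time; the block changed no other call of a member. The count of members that differ between replicate numbers was 3 under other scalings and no filter, and 2 to 4 with a library left out. CAV2 kept its direction throughout, with shRNA-D changes from -1.35 to -1.17.

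Values near 0 changed sign without being called. With a library left out, CAV1 ranged from -0.0070 to 0.33 with shRNA-D and from -0.22 to 0.069 for the mean. CAVIN1 ranged from -0.093 to 0.038 with shRNA-B, -0.093 to 0.092 with shRNA-D, -0.081 to 0.038 for the mean and -0.072 to 0.11 between the hairpins, and EHD2 from -0.12 to 0.12 with shRNA-D. CAVIN1 with shRNA-D was 0.013 with upper-quartile scaling, 0.035 with library totals and 0.00052 without number 4, and for the mean 0.0064 with library totals. CAVIN1 between the hairpins was 0.0073 with RLE, 0.045 with upper-quartile scaling, 0.057 with library totals, 0.012 with no filter, 0.0016 with DESeq2 and 0.033 without number 4. EHD2 with shRNA-D was 0.019 with upper-quartile scaling, 0.036 with library totals, 0.0017 with only the groups compared and 0.0011 without number 4.

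Counts over all genes moved with the model: 231, 71, 61 and 251 without the block against 2525, 871, 1337 and 3391 with it and 580, 228, 299 and 708 in DESeq2, in the order shRNA-B, shRNA-D, mean and between hairpins. With only the groups compared, shRNA-B gave 90 and the hairpin difference 108. The mean gave 94 with upper-quartile scaling, 97 with library totals and 110 with no filter, and without number 4 the 4 counts were 98, 22, 13 and 105. With a library left out they ranged over 120 to 261, 32 to 76, 34 to 91 and 113 to 310; the cause was not tested. CAVIN2 and CAVIN3 were too low to compare between groups at this depth.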
